A study of Mus musculus with 30 samples.

Results

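Odc1 encodes ornithine decarboxylase, the enzyme that turns ornithine into putrescine in the rate-limiting step of polyamine synthesis, and Mat2a encodes the catalytic subunit of methionine adenosyltransferase II, the enzyme that makes S-adenosylmethionine outside the liver. These 2 genes were followed in AtT-20 cells, a mouse corticotrope tumour line of the pituitary, after treatment with corticotropin-releasing hormone (CRH). They were selected on their measured ratios of CRH-treated to untreated RNA, so those ratios are given as a description, with no test. On the array, 1 spot is named for ornithine decarboxylase, structural, and 4 are named for methionine adenosyltransferase II, alpha, together 5 of 24192 spots. All cells, treated or not, had been deprived of serum before the experiment. CRH was added at 100 nM, and both kinds of cells were harvested at 1, 3, 6, 12 and 24 h. Amplified RNA of each time point was hybridised as a pair to 6 spotted cDNA arrays, with the hormone-treated RNA labelled in Cy3 on 3 of them and in Cy5 on the rest. There were 30 arrays in all, and because all 6 of a time point carry the same RNA, their SD holds no spread between cultures.

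Polyamines are small cations that bind nucleic acids and are needed for growth and translation. Their synthesis draws on both genes: ornithine decarboxylase supplies putrescine, while S-adenosylmethionine, once decarboxylated by Amd1, donates the aminopropyl groups that spermidine synthase (Srm) and spermine synthase (Sms) add to it. The rest of the S-adenosylmethionine pool serves as the methyl donor of methyltransferases, and the cycle of methionine and homocysteine, fed by folate-bound one-carbon units, renews it. In corticotropes, CRH acts through CRHR1 and cyclic AMP, and Odc1 is known as a gene that responds to growth and hormone signals within hours.

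The spots took the 2 genes at different places on the array, so that Mat2a was measured in 4 separate print-tip blocks. In order of position, Mat2a spot A lay in block row 2 and column 1, spot B in row 4 and column 4, spot C in row 8 and column 4 and spot D in row 12 and column 2. The Odc1 spot lay in block row 10 and column 2. The Odc1 spot and Mat2a spots A, B and C exceeded, on each of the 30 arrays and in either dye, the limit under which the dimmest 10% of values lie, and so passed the filter that left 14375 spots for comparison. Spot D fell under this limit on 1 array, replicate 4 at 1 h, and its values are given from the other 29 arrays. The study's supplementary annotation also names spot A for Mat2a but lists the clone of spot B only as a transcribed locus, so that the gene of spot B rests on the name deposited with the scans. The part of each transcript that a spot carries is not known here, and different spots of Mat2a were never averaged.

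The signal was high for both genes before any hormone effect is considered. In untreated RNA the median percentile of the Odc1 spot among all spots of its array was 96.3, and those of Mat2a spots A, B, C and D were 83.3, 90.4, 99.0 and 62.6. Spot C reached the scanner's upper limit in Cy5 on 6 of 6 arrays at 12 h and on 4 of 6 at 24 h, so its ratios at these times are compressed. Of the markers of the cell line, Pomc, the ACTH precursor, stood at percentile 95.01 and the 2 spots of Neurod1, a corticotrope transcription factor, at 97.2 and 82.6. Tbx19, the T-box factor of this lineage, was lower, at 41.7, and Nr4a1 and Nr4a2 were under the limit on 3 arrays each. Growth hormone stood at 29.0, and the 9 fibroblast spots ranged from 12.8 to 53.2, with 5 of the 9 above the limit on all arrays. The leukocyte marker Ptprc stood at 33.3. These percentiles compare brightness across spots and not transcript levels.

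The stretches upstream of the annotated starts are shown because both genes were followed under a hormone that signals through cyclic AMP, and the cyclic AMP response element (CRE) is a sequence in such windows. Both were taken from RefSeq for build GRCm38.p6 and are written 5′ to 3′ in the direction of the gene. Capitals mark every match, on either strand, to the CRE, TGACGTCA, or to its core, TGACG, which the whole element contains. They also mark the E-box, spelled CACGTG, the motif of TATA promoters, spelled TATAAA, the GC box, spelled GGGCGG, and the CCAAT box, named for its letters. Odc1 lies on the plus strand at chr12:17544808-17551502, and the stretch shown is the 185 bases at chr12:17544623-17544807. Mat2a lies on the minus strand at chr6:72432796-72439556, and the stretch shown is the 250 bases at chr6:72439557-72439806.
Odc1: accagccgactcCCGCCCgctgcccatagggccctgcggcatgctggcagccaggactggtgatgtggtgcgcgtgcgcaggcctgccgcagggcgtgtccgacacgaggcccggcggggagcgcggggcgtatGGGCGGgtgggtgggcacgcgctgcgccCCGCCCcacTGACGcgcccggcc
Mat2a: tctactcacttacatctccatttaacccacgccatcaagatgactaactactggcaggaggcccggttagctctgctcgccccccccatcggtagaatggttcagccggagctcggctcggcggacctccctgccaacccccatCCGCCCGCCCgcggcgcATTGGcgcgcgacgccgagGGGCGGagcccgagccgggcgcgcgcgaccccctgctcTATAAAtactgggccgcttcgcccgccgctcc

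The search covered the 250 bases before the start that RefSeq's window uses, of which, for Odc1, the last 65 bases lie inside the annotated gene and are not printed. Neither window held the whole CRE, which occurs in 1.55% of 32817 mouse windows of this length. The Odc1 window held 1 CRE core, which starts 79 bases before the start of the window's transcript, and the Mat2a window held 0, beside 17.7% of all windows with at least 1. A TATA motif began 32 bases before the Mat2a start and was not found in the Odc1 window, beside 12.4% of all windows. GC boxes numbered 4 for Odc1 and 3 for Mat2a, beside 32.7% of all windows with at least 1, and 2 of those of Mat2a overlap. The Odc1 stretch shows 3 of its 4, since the last lies in the bases not printed. The CCAAT box, which 33.8% of windows hold, was found once, in the Mat2a window. The E-box, in 6.02% of windows, was found in neither. The base composition of both was rich in G and C, at 80% for Odc1 and 67.6% for Mat2a, beside a median of 52.4%. These matches are descriptions of letters and not of bound factors.

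Odc1 was highest relative to untreated cells at 3 h, when its transcript was 1.68-fold higher. The 6 log2 ratios, treated over untreated, at 3 h ran from 0.43 to 0.93 with a median of 0.78, and all 6 lay above 0, with a mean of 0.75 ± 0.19 (SD, n = 6). At 12 h the 6 ratios ran from 0.22 to 1.14 with a median of 0.48, again all above 0, and the mean was 0.56 ± 0.35 (SD, n = 6). At 6 h the mean was similar, 0.51 ± 0.51 (SD, n = 6), but the arrays ran from -0.13 to 1.05 with a median of 0.59, and 2 of the 6 lay below 0.

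The early and late ends of the time course were low. At 1 h the ratios of Odc1 ran from -0.24 to 0.47 with a median of 0.15 and a mean of 0.10 ± 0.29 (SD, n = 6). At 24 h they ran from -0.19 to 0.37 with a median of 0.16 and a mean of 0.14 ± 0.20 (SD, n = 6). In order of the means, 3 h was followed by 12 h, 6 h, 24 h and 1 h, and each gap between neighbours was smaller than the larger SD of the pair. Over the whole course, only 3 h and 24 h had arrays that did not overlap, with means 0.61 apart on the log2 scale, the ratio at 24 h being lower.

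The ratio of Odc1 moved with the dye that carried the CRH-treated RNA. The Odc1 spot and Mat2a spot C had an interaction of time and dye under the limit of 0.01 that set spots aside from the model of change over time, whereas Mat2a spots A and B did not. At 6 h the 3 arrays carrying the treated RNA in Cy3 read 1.05, 0.79 and 0.96, while the 3 with it in Cy5 read -0.13, 0.39 and -0.02. The dye means thus differed by 0.85 at 6 h, against a median size of this difference of 0.32 over all 14375 spots. At 12 h the Cy3 arrays averaged 0.83 and the Cy5 arrays 0.29, a difference of 0.54 beside 0.40 for all spots. At 1 h the order was turned, with -0.14 in Cy3 and 0.35 in Cy5. At 3 h the orientations lay closest among the times of high ratio, 0.86 in Cy3 and 0.64 in Cy5, beside a median difference of 0.30 over all spots. At 24 h they were closer still, 0.20 and 0.08, at a low ratio. The part of the dye in the 6 h and 12 h values was not tested.

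Mat2a was also highest at 3 h on spots A and B, and from 6 h on its mean lay near or below the untreated level. On spot A the 6 ratios at 3 h ran from 0.45 to 0.80 with a median of 0.49 and a mean of 0.55 ± 0.14 (SD, n = 6), which is 1.47-fold, and all 6 lay above 0. At 1 h they already lay above 0 on 6 of 6 arrays, from 0.04 to 0.42, with a median of 0.18 and a mean of 0.22 ± 0.15 (SD, n = 6). The arrays of 1 h and 3 h did not overlap, and the gap of 0.33 between these means was larger than either SD.

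After 3 h the ratio on spot A was lower and more scattered. At 6 h it ran from -0.75 to 0.16 with a median of 0.01 and a mean of -0.11 ± 0.35 (SD, n = 6). At 12 h it ran from -0.60 to 0.51 with a median of -0.21 and a mean of -0.15 ± 0.39 (SD, n = 6), and the 6 h and 12 h arrays overlapped. At 24 h it ran from -0.75 to 0.16 with a median of -0.33, and 5 of 6 arrays lay below 0, with a mean of -0.36 ± 0.32 (SD, n = 6), or 0.780 of the untreated level. No array of 3 h overlapped any of 6 h or of 24 h, and the mean fell by 0.67 from 3 h to 6 h and by 0.91 from 3 h to 24 h. In order, 3 h was followed by 1 h, 6 h, 12 h and 24 h, and beyond the step from 3 h to 1 h no gap between neighbours exceeded the larger SD.

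Spot B gave the same order at its ends, 3 h highest and 24 h lowest. At 3 h its 6 ratios ran from 0.08 to 0.81 with a median of 0.51 and a mean of 0.46 ± 0.33 (SD, n = 6), and all lay above 0. The means at 1, 6 and 12 h were 0.03 ± 0.18, 0.04 ± 0.54 and 0.05 ± 0.34 (SD, n = 6 each), with arrays on both sides of 0 at each of these times. At 24 h the ratios ran from -0.86 to 0.14 with a median of -0.32 and a mean of -0.33 ± 0.34 (SD, n = 6), and 5 of 6 lay below 0. The gaps from 3 h down to 12 h, 0.41, and from 1 h down to 24 h, 0.36, exceeded the larger SD of their pairs, although the arrays of these pairs overlapped. Dye orientation touched spot B more than spot A at 3 h: the Cy3 arrays of spot B averaged 0.75 and its Cy5 arrays 0.18, while those of spot A averaged 0.65 and 0.45.

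**Figure D1:**
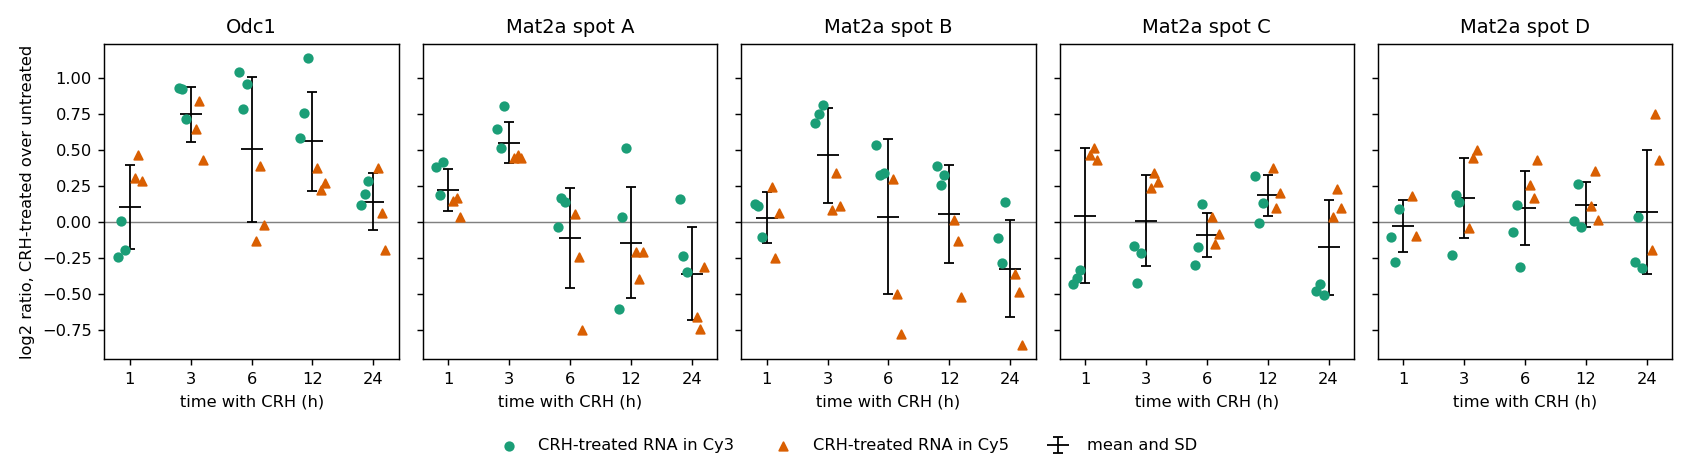
Log2 ratio, CRH-treated to untreated (vertical axis), on each array at 1, 3, 6, 12 and 24 h (horizontal axis) for the Odc1 spot and Mat2a spots A to D; circles mark arrays whose treated RNA was in Cy3, triangles in Cy5, and bars give the mean and SD of 6 arrays (5 for spot D at 1 h). All 6 arrays lie above 0 at 3 h for Odc1 and Mat2a spots A and B. The orientations of Odc1 separate at 1, 6 and 12 h, with Cy5 the higher at 1 h. The means of spots C and D lie between -0.18 and 0.19.

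Spots C and D of Mat2a did not show a 3 h value of this size. On spot C the mean at 3 h was 0.01 ± 0.32 (SD, n = 6), with 3 of 6 arrays above 0: the Cy3 arrays averaged -0.27 and the Cy5 arrays 0.28. At 1, 6, 12 and 24 h its means were 0.04 ± 0.47, -0.09 ± 0.15, 0.19 ± 0.14 and -0.18 ± 0.33 (SD, n = 6 each). Spot C was the brightest of the 4, and at 1, 3 and 24 h its Cy5 ratios lay above its Cy3 ratios, while the dye means of spots A and B at these times had the other order, by only 0.02 for spot B at 1 h. On spot D, the dimmest, the mean was 0.17 ± 0.28 (SD, n = 6) at 3 h and lay between -0.03 and 0.12 at the other times, with no time point at which all arrays shared a sign. Which of the 4 spots measures Mat2a best was not tested. A maximum at 3 h with all 6 arrays above 0 is that of spots A and B, which were singled out because they show it. The mean of spot D was also highest at 3 h, but by only 0.05 over 12 h, less than the larger SD of 0.28. Spots named for the same gene thus disagree.

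A rule of size, asking for a mean change of 1.5-fold or more and 1 sign throughout the 6 arrays, was met by Odc1 at 3 h and by no Mat2a spot at any time. Among all 14375 spots, 0.16% met it upwards at 3 h and 0.591% met it in either direction at 1 or more time points. All 6 arrays above 0 at 3 h, without a limit on size, were found for 3 of the 4 member spots that passed the filter, beside 4.66% of all spots. As the members were chosen from these ratios, nothing is read from these counts. At 3 h, 6 spots had a higher mean ratio than Odc1, 29 had a higher one than Mat2a spot A and 74 a higher one than spot B. At 24 h, 166 spots had a lower mean than Mat2a spot A and 279 a lower one than spot B.

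The day on which the arrays were quantified nearly coincides with time, so the comparison of 1 h with 3 h cannot be told apart from a difference between days. Arrays of 3 h and 6 h were quantified on the same day. Within it, the mean of Mat2a spot A fell by 0.67 and that of spot B by 0.43, and that of Odc1 by 0.24. The arrays of these times did not overlap on spot A, whereas on spot B and for Odc1 they overlapped and the fall was less than the SD at 6 h, 0.54 and 0.51. Replicates 5 and 6 of 12 h, both with CRH-treated RNA in Cy5, share a day with the 24 h arrays. On Mat2a spot A these 2 arrays read -0.40 and -0.21, against -0.66, -0.75 and -0.31 on the 24 h arrays of the same orientation. On the Odc1 spot they read 0.22 and 0.27, against 0.37, 0.06 and -0.19, and on Mat2a spot B -0.13 and -0.52, against -0.36, -0.49 and -0.86. On that day the 2 times overlapped on all 3 spots.

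Each channel was also described apart. The gap between the changes of the channels is that of the ratios already given, by which the members were chosen, so it adds no support. Changes between 1 h and 3 h cannot be told apart from a difference between days in either channel. After scaling between arrays, the log2 intensity of Odc1 in untreated RNA was 13.56 ± 0.71 at 1 h and 13.60 ± 0.40 at 3 h, while in CRH-treated RNA it was 13.66 ± 0.55 at 1 h and 14.35 ± 0.49 at 3 h (SD, n = 6). The change between these times was thus 0.04 in untreated and 0.68 in CRH-treated RNA. The first is a mean of unlike values, -0.38 on arrays with the treated RNA in Cy3 and 0.46 on the others, and it ran from -0.10 to 0.20 with 1 replicate left out, while the second was 0.62 and 0.74 in the 2 orientations. At 6 h both channels were lower, 12.41 ± 0.62 and 12.91 ± 0.91, and at 24 h they stood at 13.47 ± 0.46 and 13.61 ± 0.54. The channels moved together over time by more than they differed from each other, and at 6 h the SD of the CRH-treated channel was at its largest.

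On Mat2a spots A and B the change was larger in CRH-treated than in untreated RNA, which follows from the rise of their ratios from 1 h to 3 h. On spot A the level in untreated RNA changed by 0.14 from 1 h to 3 h and that in CRH-treated RNA by 0.47. On spot B these changes were 0.14 and 0.57. With 1 replicate left out the untreated change ran from -0.01 to 0.33 on spot A and from -0.09 to 0.49 on spot B, so its sign is not settled, and the CRH-treated change of spot B ran from 0.25 to 0.89. The SD of a channel between arrays was 0.64 to 0.81 for CRH-treated RNA at these times on the 2 spots, so each change is within the spread of its channel, and only the ratio, taken on the same array, removes that spread. At 24 h spot A was at its lowest in both channels, 11.49 ± 0.20 in untreated and 11.13 ± 0.25 in CRH-treated RNA. In bulk RNA, fewer expressing cells and less RNA per cell cannot be told apart.

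**Figure D2:**
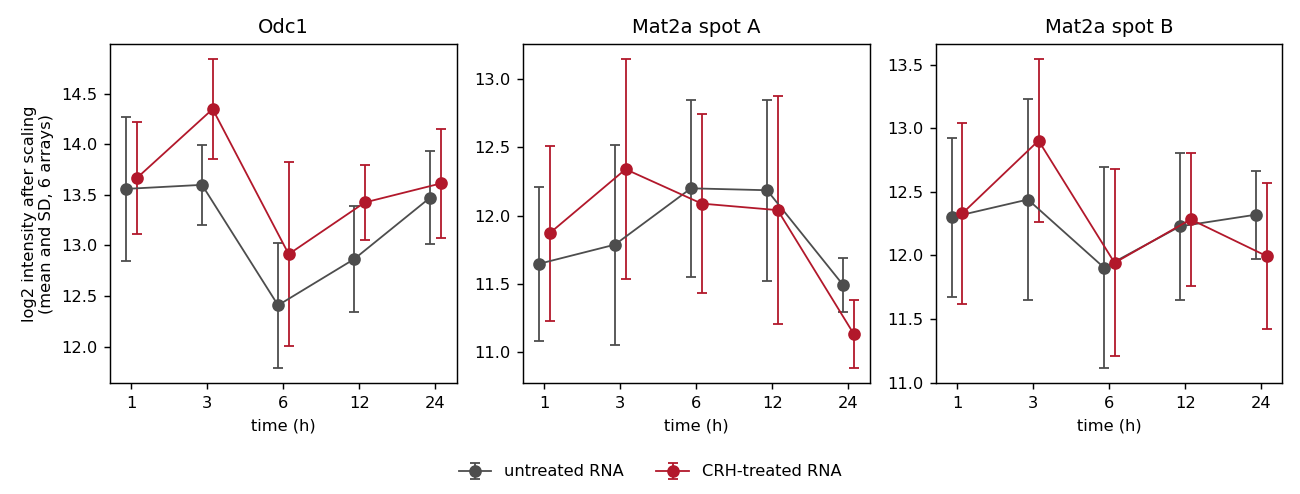
Log2 intensity after scaling (vertical axis, each panel on its own range) of untreated RNA (grey) and CRH-treated RNA (red) at each time (horizontal axis) for Odc1 and Mat2a spots A and B; points are means and bars SDs of 6 arrays. At 3 h the CRH-treated level of Odc1 is 14.35 against 13.60 untreated, and at 24 h Mat2a spot A is lower in CRH-treated RNA.

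Odc1 and Mat2a spots A and B shared the 3 h maximum, which spot C did not have, and their means parted later. At 12 h the log2 ratio of Odc1 was 0.56 while those of Mat2a spots A and B were -0.15 and 0.05, and at 24 h Odc1 was at 0.14 with the Mat2a spots at -0.36 and -0.33. Across the 30 arrays, after subtraction of each spot's mean in each dye orientation, Odc1 correlated with spot A at r = 0.31 and with spot B at r = 0.60, and spots A and B correlated with each other at r = 0.60. Spot C correlated with spot A at r = 0.17, with spot B at r = 0.41 and with Odc1 at r = 0.52. Odc1 was thus closer to spot C, which lacks the 3 h maximum, than to spot A. Odc1 and spot C both had an interaction of time and dye, which the subtraction does not remove. The part of this interaction in their r was not tested. Among all spots tested, 2317 were closer to Odc1 than spot A was, 343 closer than spot B and 676 closer than spot C. All these values share the same arrays and the same 5 pairs of extracts, so they describe these hybridisations.

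The spots most like Odc1 by this measure were led by Psat1, phosphoserine aminotransferase of serine synthesis, at r = 0.85 over 30 arrays. Karyopherin beta 1, a carrier of nuclear import, and Cyp51, a cytochrome P450 of sterol synthesis, followed at r = 0.84 each. The next were RAS-like family 2 locus 9 and heterogeneous nuclear ribonucleoprotein C, a protein of pre-mRNA, at r = 0.82 each. Their means at 1 h lay below 0, from -0.49 for Cyp51 to -0.14 for the ribonucleoprotein, where Odc1 was at 0.10. At 3 h their means ran from 0.16 to 0.44, all lower than the 0.75 of Odc1. The spots were picked for a like course, and the measure of likeness takes no account of level. It subtracts a mean per dye orientation, so a dye difference that changes with time stays in r. The Odc1 spot and the Psat1 spot named here were both set aside from the time model for such an interaction. The part of this interaction in these r values was not tested.

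The spots most like Mat2a spot A were less close. They were ribosomal protein S27-like at r = 0.70, subunit g of the mitochondrial ATP synthase at 0.64, an RNA binding motif protein retrogene at 0.62, apoptosis-associated tyrosine kinase at 0.61 and protein S, an anticoagulant cofactor, at 0.61. Spot B was most like the O subunit of the same ATP synthase at r = 0.76, core promoter element binding protein, a zinc finger factor, at 0.71, retinoic acid receptor beta at 0.69 and matrix metalloproteinase 7 at 0.68. Their means at 3 h ran from 0.09 to 0.46 for those like spot A and from 0.26 to 0.76 for those like spot B, at the time when A and B, by which they were picked, were highest. No spot was among the closest to both A and B.

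**Figure D3:**
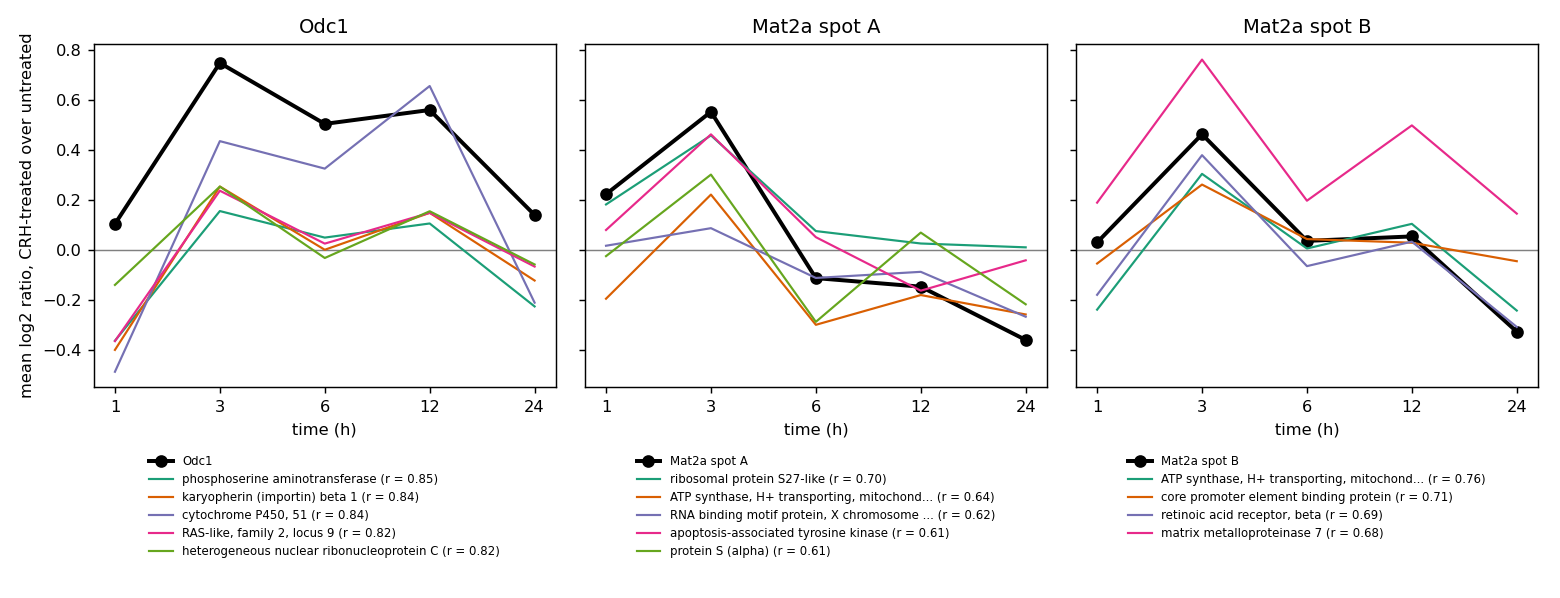
Mean log2 ratio, CRH-treated to untreated (vertical axis), at each time (horizontal axis) for Odc1 and Mat2a spots A and B (black) and, in colour, the named spots most like each (5, 5 and 4), with r over 30 arrays in the legend. The 5 spots beside Odc1 lie below 0 at 1 h, and Odc1 is the highest of them at 1, 3, 6 and 24 h.

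No spot of the other pathway genes had a mean as far from 0 as the 3 h means of Odc1 and Mat2a spots A and B, which were chosen for their ratios. Over all times the means of these other spots ran from -0.44 to 0.43. The lowest was further from 0 than Mat2a spot A at 24 h, at -0.36. From 4 lists of 21, 18, 26 and 42 genes, 62 genes with 90 spots were found by their deposited names, and 48 genes with 61 spots passed the filter on dim spots. None of the 61 met the size rule at any time, beside 0.591% of all spots, a share so low that this count says little about the lists. None was called for an effect of CRH over the time course by limma on the 5 time-point means at an adjusted p under 0.05. Of all spots, 0.0487% were called higher and 0.00696% lower. The test takes the spread between time points as error. A brief response, or a response that changes sign, is thus unlikely to pass it, and the absence of calls does not show the absence of such a response. At an unadjusted p under 0.05, 2 of the 61 passed, or 3.28%, beside 5.44% of all spots. The median of this effect over the 61 spots was -0.02 on the log2 scale and over all spots -0.01. A change over time, by a linear model over 30 arrays with dye orientation as a term, was called at p under 0.01 for 5 of 48 spots of the lists, beside 8.5% of all spots that entered this test. A further 13 of the 61 had been set aside for an interaction of time and dye, beside 14.8% of all spots. The p-values of this model rest on how far repeated hybridisations of a pair of extracts varied and not on separate cultures.

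Among genes of polyamine metabolism, 15 spots of 12 genes were tested and 2 of 13 entering the time model changed over time, beside the 8.5% of all spots. Oat, ornithine aminotransferase, which shares its substrate with ornithine decarboxylase, was below 0 on 6 of 6 arrays at 1 h, with a mean of -0.33 ± 0.22, and above 0 on 6 of 6 at 3 h, with 0.41 ± 0.28 (SD, n = 6). Its change over time had p = 5.29e-05 in the linear model, n = 30 arrays, and adjusted p = 0.00518 by Benjamini-Hochberg over 12244 spots. Eif5a, the translation factor that carries the spermidine-derived residue hypusine, had -0.34 ± 0.18 at 1 h and 0.37 ± 0.39 at 3 h (SD, n = 6). Here the model gave p = 7.55e-06, n = 30 arrays, and adjusted p = 0.00152. On all 6 arrays both genes lay below 0 at 1 h, where Odc1 was at 0.10, and at 3 h Oat lay above 0 on 6 and Eif5a on 4 of 6.

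Other genes close to ornithine decarboxylase were not called, and those given here are named for their place in the pathway. Srm, spermidine synthase, had the highest mean ratio of the list, 0.43 ± 0.22 at 3 h (SD, n = 6) with 6 of 6 arrays above 0, and 0.40 at 6 h. Its change over time did not pass, at p = 0.0259 in the model, n = 30 arrays. The 2 measured spots of Amd1, S-adenosylmethionine decarboxylase, had 0.09 and 0.00 at 3 h, the second of them set aside for its interaction with dye, and Sms, spermine synthase, had -0.02. Sat1, the acetyltransferase that starts polyamine breakdown, had 0.08 at 3 h. Of the antizymes, which bind ornithine decarboxylase, Oaz1 had -0.09 and Oaz2 -0.12 at 3 h. The 2 spots of Oaz3 had 0.16 and 0.19, the first of them set aside for its interaction with dye. Over the list the median was -0.12 at 1 h, 0.08 at 3 h and -0.05 at 24 h, beside 0.00, -0.02 and -0.01 for all spots.

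In the methionine cycle, 7 spots of 6 genes were tested and 0 were called. Over all spots 8.5% were called for a change over time, so 0 of 7 says little about the cycle. Their means ran from -0.27 to 0.37 over all times. Mat1a, the liver form of the catalytic subunit, had 0.16 at 3 h and -0.03 at 24 h, and Ahcy, the hydrolase of S-adenosylhomocysteine, had -0.09 and -0.17. Mat2b, the regulatory partner of Mat2a, was not matched to a deposited name.

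In folate and serine one-carbon metabolism, 16 spots of 13 genes were tested and 1 of 11 entering the time model was called, beside 8.5% of all spots. Mthfd2, the mitochondrial enzyme that oxidises methylene-tetrahydrofolate, was below 0 on 6 of 6 arrays at 1 h, with -0.39 ± 0.17, and above 0 on 6 of 6 at 3 h, with 0.18 ± 0.12 (SD, n = 6). The model gave p = 0.000491, n = 30 arrays, and adjusted p = 0.0204. Psat1, on the spot most like Odc1, had -0.36 at 1 h and 0.16 at 3 h, and its second spot -0.39 and 0.26. Both were set aside for their interaction with dye.

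Of the methyltransferases that use S-adenosylmethionine, 23 spots of 17 genes were tested and 2 of 17 entering the time model were called, beside 8.5% of all spots. Fbl, fibrillarin, a methyltransferase of ribosomal RNA, had -0.26 ± 0.38 at 1 h and 0.22 ± 0.10 at 3 h (SD, n = 6). Its change over time had p = 0.00653, n = 30 arrays, and adjusted p = 0.0937. On 1 of its 3 tested spots Pcmt1, which repairs damaged aspartyl residues in proteins, had -0.23 ± 0.21 at 1 h and 0.07 ± 0.22 at 3 h (SD, n = 6). Its change over time had p = 0.00465, n = 30 arrays, and adjusted p = 0.0783. The adjusted values of these 2 spots did not pass 0.05. As the day of quantification nearly coincides with time, the changes of the list spots between 1 h and 3 h cannot be told apart from a difference between days. With the day as a further term, 0 of the spots of the 4 lists were called. That model compares times within a day, so it cannot judge the step from 1 h to 3 h.

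**Figure D4:**
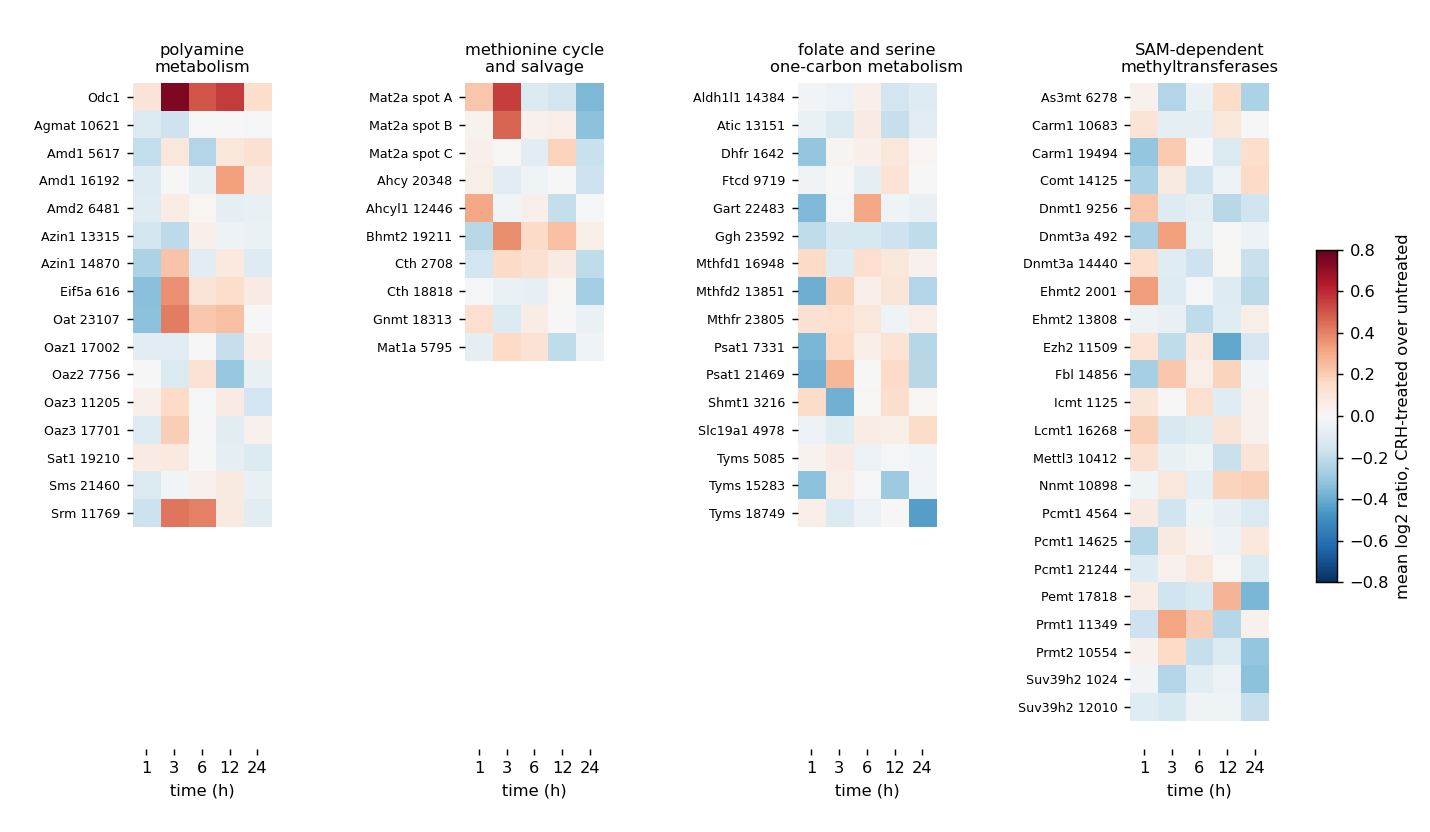
Mean log2 ratio, CRH-treated to untreated, in colour (red above 0, blue below), at each time (horizontal axis) for every spot of the 4 gene lists that passed the filter (rows, with symbol and spot number), with Odc1 above the polyamine list and Mat2a spots A to C above the methionine list. The darkest cell is Odc1 at 3 h, 0.75, and the highest of the 61 list spots reaches 0.43.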

How the data were processed

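Amplified RNA of CRH-treated and untreated AtT-20 cells was measured on 30 arrays carrying both dyes, 6 technical replicates per time point, whose number sets the precision. The authors deposited scanner intensities per spot, by the fixed circle method, without background subtraction, and log2 ratios of 12593 spots made by them through removal of the lowest 10% of intensities and a loess fit per print-tip block. From the deposited intensity values, gene spots above the lowest 10% of both channels of an array were fitted with a loess curve in each block (span 0.75, 4 iterations), and spots above that limit on all 30 arrays were kept, 14375 of 24192. The sign was turned to CRH-treated over untreated. Over the 11341 spots in common, r with the authors' log2 ratios was 0.977 to 0.994. Channel levels were scaled between arrays by Aquantile.

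limma was run on 5 time-point means, and linear models over 30 arrays tested time after removal of spots with an interaction of time and dye, each at p under 0.01. All fits were tested on simulated data. Alternatives covered normalization, filters, dye orientations, day, blocks, thresholds and left-out arrays. Pathway genes were found by exact deposited names. In each list, spots passing a test or the size rule were named, at most 8, and for the Odc1 spot and Mat2a spots A and B the 5 most similar named spots. A similar spot and a marker are not reported here. The members, lists and rules were chosen with earlier results of these data known. Tools were R 4.3.3, limma 3.58.1, Python 3.11.15 and matplotlib 3.10.9.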

Additional observations from a re-analysis of the deposited data

Results flagged for a closer look

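In groups of 6 arrays, 1 array can stand apart by a gap that takes most of the range. Of 49 such groups checked, over the members and the called list genes, 2 had such an array, and chance gives about 1 in 20. Both belong to Fbl: replicate 2 at 3 h read 0.0285 where the others ran from 0.215 to 0.299, and replicate 5 at 24 h read 0.267 where the others ran from -0.133 to -0.0184. No group of the Odc1 spot or of a Mat2a spot had one. Each group pools both dye orientations. Where these differ, as for Odc1 at 6 h, the range is wider and 1 array less easily stands apart. Finding none among these spots thus says little, and the rate of 1 in 20 need not hold for them.

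The ratio differed between time points, by the linear model over n = 30 arrays, for 5 spots of the gene lists: Oat (p = 5.29e-05), Eif5a (p = 7.55e-06), Mthfd2 (p = 0.000491), Pcmt1 (p = 0.00465) and Fbl (p = 0.00653). In all 5 the mean was below 0 at 1 h and above 0 at 3 h.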

How the results depend on the processing

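Under 5 other ways of processing, the ratio at 3 h ranged from 0.70 to 0.92 for Odc1, from 0.49 to 0.57 for Mat2a spot A and from 0.40 to 0.57 for spot B, and at 24 h from -0.36 to -0.33 for spot A and from -0.37 to -0.33 for spot B. The dye orientation moved them further: with 1 orientation alone Odc1 was 0.08 or 0.93 at 6 h and spot B 0.18 or 0.75 at 3 h. Such subsets, left-out arrays and medians of the same 6 values cannot leave their mean by more than about 1 SD, so they say little about stability. Sign was lost in some alternative for Odc1 at 1 h (-0.14 with CRH-treated RNA in Cy3 alone), for spot A at 6 h (up to 0.09) and 12 h (to 0.00), for spot B at 1, 6 and 12 h, and for the untreated channel change from 1 h to 3 h of all 3 spots.

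Of 100 recomputed counts of called spots, 26 moved by over 1.5 times. The 8 spots called for a CRH effect became 0 without removal of dim spots, 0 with a robust and trended prior, 44 without 1 h, 5 without 6 h, 4 without 12 h and 5 without 24 h; they became 63 over 30 arrays with time as a random block, 49 with the day of quantification as one, and 53 with the replicate block. The 1041 spots called for time became 342 with the day as a further term, 525 for 3 h against 6 h alone and 488 at an adjusted p under 0.05. The 5 called list spots became 3 with 1 loess per array, 0 with the day, 2 for 3 h against 6 h, 3 at the adjusted threshold and 8 without removal for dye. The 85 spots meeting the size rule became 151 with median centring, 283 without removal of dim spots, 3 at 2-fold, 3409 with Cy3 and 2252 with Cy5 arrays alone (list spots 0, 12 and 4), and 109 to 135 with 1 replicate left out. With 1 orientation alone or 1 replicate left out, the size rule asked for 1 sign on fewer arrays, so these counts are not like for like with the 85. The cause of the moves was not tested.

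Same-numbered arrays of different time points did not deviate together (r from -0.0242 to 0.0482 over 60 pairs, dye removed), so replicate numbers do not pair arrays. Depth does not apply to arrays; spots at the upper scanner limit give compressed ratios.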
